A study of Homo sapiens with 6 samples.

Results

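The genes of the BCL2 family, which decide whether a mitochondrion releases its death signals, were followed in HCT116, a line of human colorectal cancer cells. The 10 members were taken by gene symbol from the 58735 genes listed with an expression value. They comprise the anti-apoptotic genes BCL2, BCL2L1 and MCL1, the effector genes BAX and BAK1, and the BH3-only genes BID, BAD, BBC3, PMAIP1 and BCL2L11. RNA-seq had been performed on 2 groups of 3 libraries, one from control cells (CTR, genotype given as WT) and one from cells that received miR-8485 mimics (miR-8485). A mimic is a short synthetic RNA that acts as the mature miRNA. The methods of the study give 50 nM of mimic and collection at 48 h as the general transfection procedure, without a time for the sequenced cells, and name the libraries of a group independent biological replicates. The study describes its CTR cells as transfected with a control, whose sequence is not given in the sources used here. All libraries come from one cell line, so they stand for the tumor of one origin. The comparison addresses how a raised level of miR-8485 alters the transcriptome of colorectal cancer cells.

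In healthy and malignant cells alike, the effectors BAX and BAK form pores in the outer mitochondrial membrane, through which cytochrome c escapes and activates caspases. BCL-2, BCL-XL (from BCL2L1) and MCL-1 hold the effectors in check. BH3-only proteins sense stress, and either bind and occupy the anti-apoptotic proteins or activate the effectors directly. BAX, BBC3 and PMAIP1 are classical transcriptional targets of the DNA damage response, while many colorectal cancers rely on BCL-XL and MCL-1 for survival.

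A miRNA recognizes mRNAs mainly by its seed, bases 2 to 8. The sequence of the mimic is shown first because it defines the site searched in the members. Capitals mark the seed, which pairs with TGTGTGT.

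miR-8485 mimic: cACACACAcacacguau

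Of the 10 members, BCL2L11 was the one gene whose longest annotated 3′ UTR (GENCODE release 44 on GRCh38, the same assembly as the hg38 of the study) held a copy of TGTGTGT. Its 3′ UTR of 4213 bases (chromosome 2, 111164232 to 111168444, plus strand) holds 4 copies, a pair of which overlap. The other 9 members, with 3′ UTRs of 379 bases in BAD to 5933 bases in BCL2, held 0. Shorter matches to the seed were not counted. The longest run of alternating T and G was 6 bases in BCL2, BCL2L1 and MCL1, and 5 bases in the remaining members without a copy. Among tested genes with an annotated 3′ UTR, 31.4% of 10676 held at least 1 copy and 5.1% held 5 or more. The median length of these 3′ UTRs was 1790 bases, shorter than that of BCL2L11. In the 3′ UTRs of the transcripts tagged as canonical the numbers were again 4 in BCL2L11 and 0 in the other members, against 28.9% of tested genes with a copy. The BCL2L11 sites are printed with the matched letters in capitals, on the plus strand, at chr2:111167314-111167333, chr2:111167981-111168000 and chr2:111168068-111168087. The second of them holds the overlapping pair, of which the first copy is marked. A match describes the sequence and does not show that the mimic bound there.

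BCL2L11 site A: atgaagTGTGTGTttgatgc
BCL2L11 site B: ggtgccTGTGTGTgtccact
BCL2L11 site C: cagcatTGTGTGTaagaagc

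The libraries held 17473874 to 17888110 fragments on listed genes in CTR and 17710376 to 18480047 in miR-8485. The MIR8485 gene was at 0 in all libraries, so the level of the mimic was not measured. Between libraries of a group, fragment counts differed by more than sampling noise (chi-square per gene 2.75 to 10.5, where noise alone gives about 1). CTR replicate 1 lay farthest from the rest of its group, at 8.46 and 10.5 against 3.05 between the other two. Fragments of the mitochondrial genome made up 7.94% to 10.2% in CTR and 10.6% to 11.3% in miR-8485, and their part in the changes of the members was not tested. Of the 6 epithelial markers, EPCAM, CDH1, KRT8, KRT18 and KRT19 were at 18.7 FPKM or more in every library and VIL1 was at most 0.0639 FPKM. KRT8, KRT18 and KRT19 were called lower in the test used for the members, and the sum of the 6 was 2598 to 2822 FPKM in CTR and 1724 to 1808 FPKM in miR-8485. Of the 6 markers of blood, endothelium and fibroblasts, COL1A1 was at 4.05 FPKM or more, the others did not exceed the 0.202 FPKM of VWF, CD3E was at 0 throughout, and the sum was 4.28 to 4.53 FPKM in CTR and 6.47 to 6.54 FPKM in miR-8485.

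BBC3 and BAX rose in the miR-8485 cells, and BCL2L1, MCL1, PMAIP1 and BCL2L11 fell. BBC3 rose 3.54-fold and BAX 1.77-fold, while the falls ranged from a ratio of 0.850 for BCL2L1 to 0.553 for BCL2L11. BAK1, BID, BAD and BCL2 were not past the threshold. These calls are from limma on log2(FPKM + 0.1), FPKM being the fragments of a gene scaled to its length and to the total of the library, with Benjamini-Hochberg adjustment over the 12349 genes with a mean of at least 1 FPKM and a threshold of 0.05 on the adjusted p. Of the 9 members tested at this level, 2 were higher and 4 lower, against 29.1% higher, 30.5% lower and 59.6% in either direction among all tested genes. The share of members called is thus near that of all tested genes. All libraries of one group lay above or below all of the other for the same 2 rising and 4 falling members, against 32.5% above, 34% below and 66.5% in either direction among all tested genes. The median log2 fold change was -0.08 over the 9 members and -0.0041 over all tested genes. Values are bulk measurements relative to the library total, so a smaller number of cells with an mRNA and less of it per cell cannot be told apart, and neither protein levels nor cell death were measured here.

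**Figure D1:**
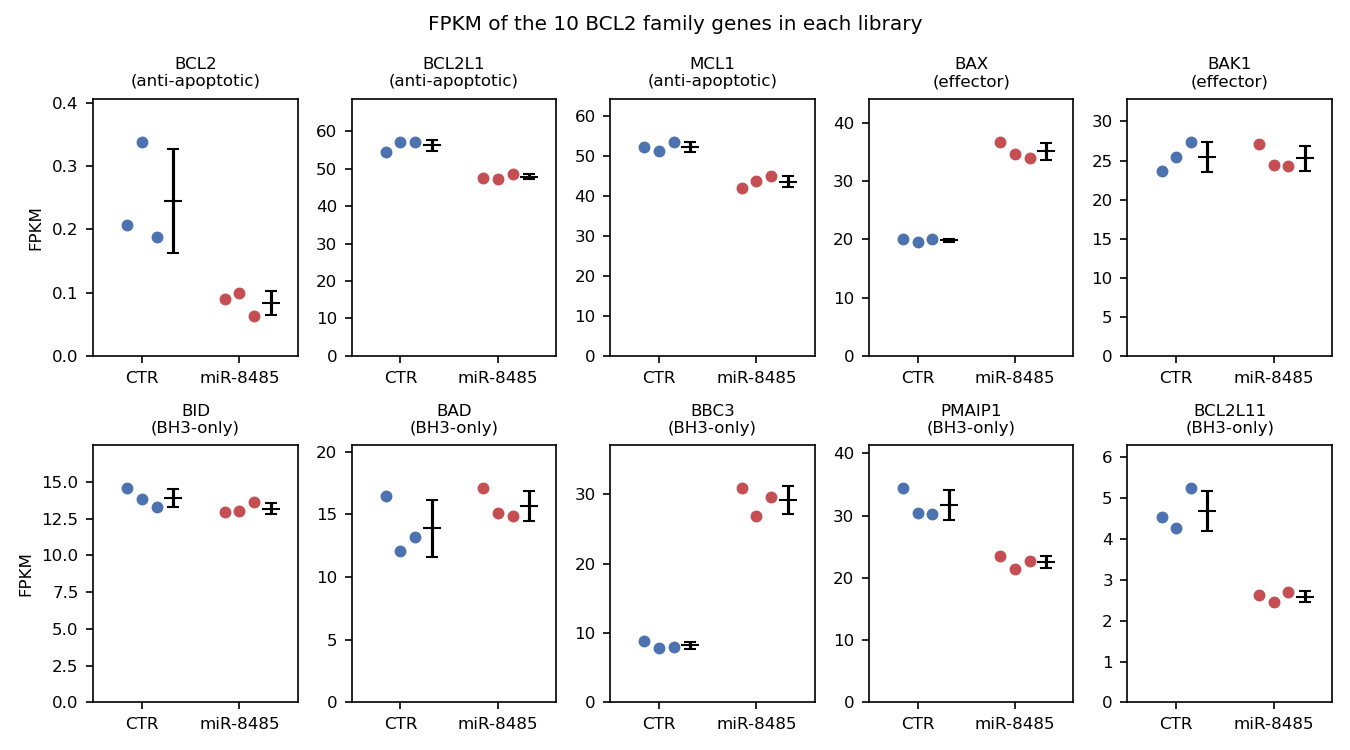
FPKM of each of the 10 genes (vertical axis, from 0, its own scale per gene) in the 3 CTR (blue) and 3 miR-8485 (red) libraries, ordered by replicate number within a group, with the mean and SD beside the points. The miR-8485 points of BAX and BBC3 lie above all CTR points, those of BCL2, BCL2L1, MCL1, PMAIP1 and BCL2L11 below, and those of BAK1, BID and BAD among them.

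Among the anti-apoptotic genes, BCL2L1 (ENSG00000171552, chromosome 20 of hg38, 31664452 to 31723989, minus strand) had the highest FPKM of the 10 members in both groups. It encodes BCL-XL, with a shorter pro-apoptotic splice form that gene-level values do not separate. It was at 54.4, 57.1 and 57.2 FPKM across CTR libraries and 47.6, 47.2 and 48.6 FPKM across miR-8485 libraries. The groups did not overlap, and the CTR and miR-8485 means of 56.2 ± 1.55 and 47.8 ± 0.689 FPKM (SD, n = 3) gave a log2 fold change of -0.23 (standard error, SE, 0.04, adjusted p = 0.0018 by limma). An antisense RNA within BCL2L1, ABALON, was at 3.72 ± 0.724 FPKM in CTR and 1.82 ± 0.479 FPKM in miR-8485 (SD, n = 3 each). The use of strand in the counting is not given in the sources used here, so reads of such overlapping genes cannot be assigned with certainty.

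MCL1 (ENSG00000143384, chromosome 1, 150574551 to 150579738, minus strand) encodes a short-lived guard of BAK and BAX whose protein is turned over within the cell by the proteasome. Its level was 52.3, 51.3 and 53.7 FPKM in CTR and 42.1, 43.9 and 45.0 FPKM in miR-8485. All miR-8485 libraries were below all CTR libraries, with -0.26 as log2 fold change (SE 0.04, adjusted p = 0.0015 by limma). The falls of BCL2L1 and MCL1 were thus of like size, and both lay inside the middle range of all tested genes, whose 25th percentile was -0.33. 

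BCL2 (ENSG00000171791, chromosome 18, 63123346 to 63320128, minus strand), the founding member of the family, was barely expressed. It was at 0.207, 0.338 and 0.188 FPKM in CTR and 0.0899, 0.0987 and 0.0625 FPKM in miR-8485, that is 44, 72 and 40 fragments against 19, 21 and 14. The groups did not overlap, as in 34.6% of genes above 0 (17.7% above and 16.9% below), but this level lies below the filter, and in the fit of all 31768 genes above 0 the fitted log2 fold change was -0.89 (with SE 0.32, adjusted p = 0.113 by limma), not past the threshold. In that fit 10.8% of genes were called higher and 11.3% lower, or 22.1% in either direction. BCL2 did pass in voom, the limma test for counts, on its recovered fragments (log2 fold change -1.51, adjusted p = 0.0020) and in limma without a variance trend (adjusted p = 0.0357), with adjusted p from 0.0020 to 0.222 over all alternatives. Its log2 fold change was -0.20 when 1 rather than 0.1 was added to FPKM, and -1.42 when 0.01 was added. Neither was past the threshold in limma. The size of its difference thus depends on the constant added and is poorly known at this depth.

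The effector genes differed from each other. BAX (ENSG00000087088, chromosome 19, 48954815 to 48961798, plus strand) was at 20.02, 19.6 and 19.99 FPKM in CTR and 36.8, 34.6 and 34.0 FPKM in miR-8485. The CTR libraries lay within 0.5 FPKM of each other and all miR-8485 libraries were far above them. The means were 19.9 ± 0.251 and 35.1 ± 1.45 FPKM (SD, n = 3), which is 0.82 as log2 fold change (SE 0.05, adjusted p = 1.0e-05 by limma), higher than that of 93.4% of tested genes. BAK1 (ENSG00000030110, chromosome 6, 33572547 to 33580293, minus strand), which encodes the effector that resides on mitochondria, was at 23.6, 25.4 and 27.4 FPKM in CTR and 27.2, 24.4 and 24.2 FPKM in miR-8485. These values overlapped fully, and the fitted log2 fold change of -0.01 (with SE 0.07, adjusted p = 0.908 by limma) changed sign with the processing. A processed pseudogene, BAK1P1, held 2 to 14 fragments per library against 942 to 1097 for BAK1. Within each library, the ratio of BAX to BAK1 in FPKM, which no scaling between libraries can alter, went from 0.848, 0.770 and 0.730 in CTR to 1.35, 1.42 and 1.40 in miR-8485. BAX was below BAK1 in every CTR library and above it in every miR-8485 library.

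Among the BH3-only genes, BBC3 (ENSG00000105327, chromosome 19, 47220822 to 47232766, minus strand) had the highest log2 fold change. It encodes PUMA, which binds all anti-apoptotic members. Its level was 8.84, 7.86 and 7.99 FPKM in CTR and 30.8, 26.9 and 29.6 FPKM in miR-8485. Every miR-8485 library was over 3 times as high as any CTR library. With means of 8.23 ± 0.534 and 29.1 ± 2.01 FPKM (SD, n = 3), the fitted log2 fold change was 1.81 (with SE 0.07, adjusted p = 2.6e-06 by limma). BBC3 ranked 79 from the top among the 12349 tested genes by log2 fold change, and 442 genes in all rose by at least 1 past the threshold. BBC3 held 452 to 507 fragments per CTR library and 1548 to 1793 per miR-8485 library.

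PMAIP1 (ENSG00000141682, chromosome 18, 59899948 to 59904306, plus strand) encodes NOXA, which binds mainly MCL-1 and promotes its degradation. It was at 34.4, 30.4 and 30.2 FPKM in CTR and 23.5, 21.5 and 22.7 FPKM in miR-8485. The miR-8485 libraries were all lower, with -0.49 as log2 fold change (SE 0.06, adjusted p = 5.0e-04 by limma). PMAIP1 and BBC3, both BH3-only genes, therefore moved in opposite directions. The ratio of BBC3 to PMAIP1 within a library was 0.257, 0.258 and 0.264 in CTR and 1.31, 1.25 and 1.30 in miR-8485, so that their order was inverted in every library.

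BCL2L11 (ENSG00000153094, chromosome 2, 111119378 to 111168447, plus strand) encodes BIM, a strong activator of BAX and BAK that growth factor signaling restrains, and is the member with the seed matches printed above. It was at 4.54, 4.28 and 5.24 FPKM in CTR and 2.63, 2.46 and 2.70 FPKM in miR-8485. The groups were well apart, and the fitted log2 fold change of -0.83 (with SE 0.09, adjusted p = 2.1e-04 by limma) was lower than that of all but 7.26% of tested genes. MIR4435-2HG, which overlaps BCL2L11 on the opposite strand, was at 1.03 ± 0.0957 FPKM in CTR and 0.808 ± 0.140 FPKM in miR-8485 (SD, n = 3 each), and its part in the BCL2L11 value was not tested.

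BID (ENSG00000015475, chromosome 22, 17734138 to 17774770, minus strand), which caspase-8 cleaves to link death receptors to mitochondria, was at 14.6, 13.8 and 13.3 FPKM in CTR and 12.9, 13.0 and 13.6 FPKM in miR-8485. The groups overlapped and the fitted log2 fold change was -0.08 (with SE 0.05, adjusted p = 0.240 by limma). After rescaling to TPM it was past the threshold (log2 fold change -0.19, adjusted p = 0.0441, in a range of 0.0441 to 0.617), but that scaling moved the median of all tested genes to -0.12. BAD (ENSG00000002330, chromosome 11, 64269830 to 64284704, minus strand), a BH3-only gene whose protein is held inactive by phosphorylation and 14-3-3 binding, was at 16.4, 12.0 and 13.2 FPKM in CTR and 17.1, 15.1 and 14.8 FPKM in miR-8485. CTR replicate 1 lay among the miR-8485 libraries and the other CTR libraries below them. The log2 fold change was 0.18 (SE 0.12, adjusted p = 0.207 by limma), but without CTR replicate 1 it was 0.31 and past the threshold (adjusted p = 0.0149, and 0.0149 to 0.913 over the alternatives). GPR137, which overlaps BAD on the opposite strand, was at 5.59 ± 0.677 FPKM in CTR and 7.75 ± 0.307 FPKM in miR-8485 (SD, n = 3 each).

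**Figure D2:**
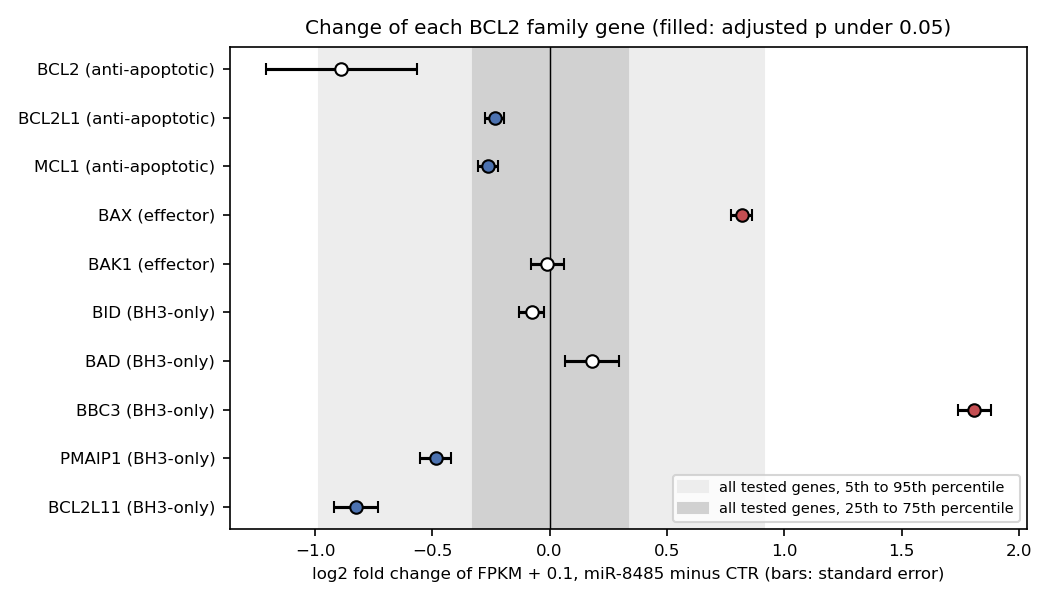
Log2 fold change of FPKM + 0.1, miR-8485 minus CTR (horizontal axis), with its standard error for each of the 10 genes. Filled points are past an adjusted p of 0.05 (red higher, blue lower), BCL2 is from the fit of all genes above 0, and the shaded bands hold the middle of all tested genes (25th to 75th percentile -0.33 to 0.33, 5th to 95th percentile -0.98 to 0.91). BBC3 at 1.81 lies beyond the outer band, and BCL2L1, MCL1, BAK1, BID and BAD lie within the inner one.

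The order of the levels within the family differed between the groups. FPKM is per length, so genes can be ordered within a group, subject to the single length listed for each gene. In fragments, MCL1 (4054 to 4245 per CTR library) was above BCL2L1 (3253 to 3430 per CTR library). Their order in FPKM thus rests on the listed lengths of 4371 and 3314 bases. In CTR the order was BCL2L1, MCL1, PMAIP1, BAK1, BAX, BID, BAD, BBC3, BCL2L11 and BCL2, and the library ranges of neighbors were separate except for BID and BAD, both at 13.9 FPKM. In miR-8485, BAX at 35.1 FPKM and BBC3 at 29.1 FPKM came directly after BCL2L1 and MCL1, followed by BAK1, PMAIP1, BAD, BID, BCL2L11 and BCL2. Here the ranges of BBC3 and BAK1 overlapped, and those of all other neighbors were separate. BCL2L1 and MCL1 were the highest of the 10 members in both groups.

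Summed by role, the anti-apoptotic genes held a smaller part of the family in miR-8485. Their summed level was 109 ± 2.07 FPKM in CTR and 91.6 ± 1.92 FPKM in miR-8485 (SD, n = 3 each). As a share of the 10-gene sum, they made up 46.6%, 48.9% and 48.6% in CTR and 37.3%, 39.8% and 39.8% in miR-8485. The effectors made up 19.03%, 20.3% and 20.7% in CTR and 26.6%, 25.8% and 24.7% in miR-8485, with BAX called higher and BAK1 not called. The BH3-only share was 34.4%, 30.8% and 30.6% in CTR and 36.1%, 34.4% and 35.5% in miR-8485, so CTR replicate 1 was close to the lowest miR-8485 library. These shares are within a library and are free of the scaling between libraries, but rest on the single length listed for each gene. In recovered fragments, the anti-apoptotic share was 55.3%, 57.3% and 57.0% in CTR and 45.6%, 48.1% and 47.9% in miR-8485. All shares are given as a description, without a test.

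The BH3-only sum hid opposite movements. With BBC3 left out, the sum of the other 4 BH3-only genes was 69.9, 60.6 and 62.0 FPKM in CTR and 56.1, 52.0 and 53.9 FPKM in miR-8485, lower in every miR-8485 library. BBC3 was left out with its rise known, so a lower remainder is partly fixed by that choice. Mean FPKM in CTR and miR-8485 was 31.7 and 22.6 for PMAIP1, and 4.69 and 2.59 for BCL2L11. BID was not called, and BAD, at 13.9 and 15.7 FPKM, was not called either. With BBC3, the BH3-only sum was 72.4 ± 5.59 FPKM in CTR and 83.1 ± 4.04 FPKM in miR-8485 (SD, n = 3 each). The ratio of BAX to BCL2L1, often read as a measure of the balance, was 0.368, 0.343 and 0.350 in CTR and 0.772, 0.733 and 0.700 in miR-8485. BBC3 relative to MCL1 was 0.169, 0.153 and 0.149 in CTR and 0.732, 0.613 and 0.658 in miR-8485. In contrast, PMAIP1 relative to MCL1, its main partner, was 0.659, 0.593 and 0.563 in CTR and 0.558, 0.489 and 0.505 in miR-8485. BCL2L11 relative to MCL1 was 0.0869, 0.0834 and 0.0977 in CTR and 0.0623, 0.0560 and 0.0599 in miR-8485.

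**Figure D3:**
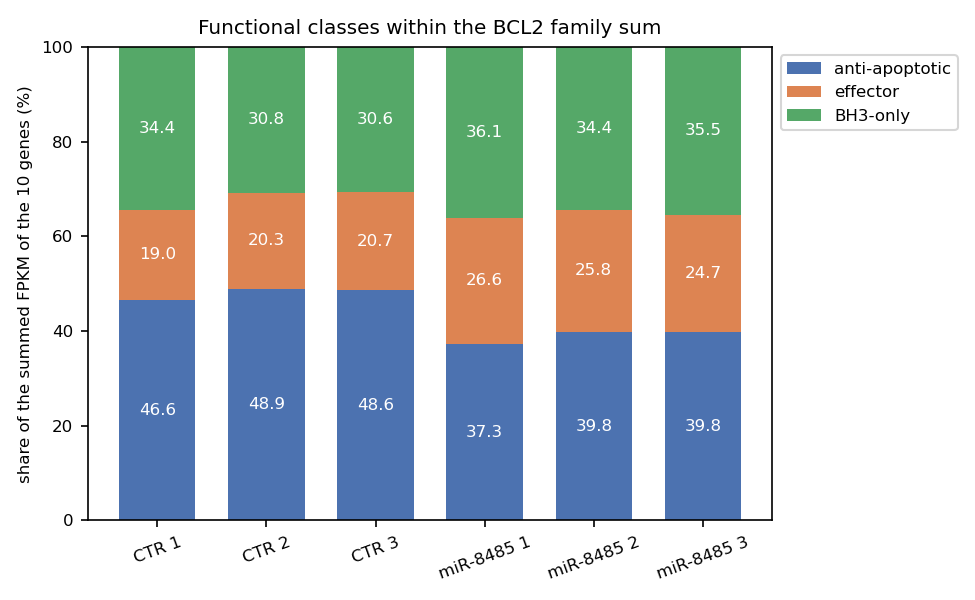
Share of the summed FPKM of the 10 genes (vertical axis, %) taken by the anti-apoptotic, effector and BH3-only genes in each of the 6 libraries, with the share written in each bar. The anti-apoptotic share is 46.6% or more in CTR and 39.8% or less in miR-8485.

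The remaining genes of the wider family were listed by name. Of these 13 genes, 8 reached a mean of 1 FPKM, and 3 of them were higher and 2 lower in the same limma test, with a median log2 fold change of 0.04. The share called was near the 59.6% of all tested genes. BIK, a BH3-only gene whose protein resides at the endoplasmic reticulum, rose from 34.1, 32.1 and 31.8 FPKM in CTR to 69.8, 65.9 and 59.8 FPKM in miR-8485, which is 0.99 as log2 fold change (SE 0.06, adjusted p = 1.7e-05 by limma). It thereby exceeded every one of the 10 members in FPKM in miR-8485. BOK, an effector-type gene, rose from 21.8 ± 2.24 to 31.5 ± 2.51 FPKM (SD, n = 3), at a log2 fold change of 0.53, and BCL2L13, a mitophagy receptor, by a log2 fold change of 0.68. BNIP3, a hypoxia-induced mitophagy receptor with a BH3-like region, fell from 28.9 ± 1.76 to 16.9 ± 0.609 FPKM (SD, n = 3), at a log2 fold change of -0.77, and BCL2L12 fell by 0.26 on the log2 scale. The anti-apoptotic BCL2L2 stood at -0.10 in log2 fold change (adjusted p = 0.308 by limma), the BH3-only gene BMF 0.15 (adjusted p = 0.402) and BNIP3L -0.06 (adjusted p = 0.256). BCL2A1, BCL2L10, BCL2L14, BCL2L15 and HRK had means of 0.033 to 0.615 FPKM and were not past the threshold in the fit of all genes above 0.

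Of the genes whose proteins bind the members or set their turnover, all 16 matched were tested, and 9 were lower and 1 was higher, with a median log2 fold change of -0.22. Among all tested genes 30.5% were lower and 29.1% higher, and the share called in either direction was near the 59.6% of all tested genes. SFN, which encodes 14-3-3 sigma, fell most, from 289, 235 and 250 FPKM in CTR to 82.9, 73.8 and 79.2 FPKM in miR-8485, which is -1.71 as log2 fold change (SE 0.08, adjusted p = 5.8e-06 by limma). It was followed by DYNLL2, a dynein light chain that binds BMF, with a log2 fold change of -1.23 (adjusted p = 3.9e-06), and YWHAB, another 14-3-3 gene, with -0.34 (adjusted p = 5.4e-04). The other genes of 14-3-3 proteins, which bind phosphorylated BAD, had log2 fold changes from -0.27 in YWHAH to -0.04 in YWHAE, the latter not past the threshold. The VDAC2 channel, a mitochondrial partner of BAK, fell from 94.8 ± 2.57 to 77.2 ± 0.590 FPKM (SD, n = 3). VDAC3 fell by a like amount (log2 fold change -0.31 against -0.30 in VDAC2), and VDAC1, at 0.0021, was not past the threshold. DYNLL1, the light chain that binds BIM, rose with a log2 fold change of 0.20 (adjusted p = 0.0095 by limma). After rescaling to TPM it was not past the threshold (log2 fold change 0.08, adjusted p = 0.258 by limma, in a range of 0.0026 to 0.258). That scaling moved the median of all tested genes to -0.12. HUWE1, FBXW7 and USP9X, which act on the stability of MCL-1, were not past the threshold, with log2 fold changes of 0.04, -0.02 and -0.17.

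Of 7 genes that regulate the transcription of members, 1 was higher and 3 were lower, and their median log2 fold change was -0.08. The part of them called was near the 59.6% of all tested genes. TRIB3, a stress-induced pseudokinase, rose from 9.64, 9.61 and 10.2 FPKM in CTR to 14.3, 14.7 and 15.2 FPKM in miR-8485, which is 0.58 as log2 fold change (SE 0.05, adjusted p = 6.5e-05 by limma). Among the factors that fell, TP73 had -0.54, E2F1, which drives S-phase genes, -0.72, and ATF4, the factor of the integrated stress response, -0.47, each with an adjusted p of at most 0.0032 in limma. FOXO3 and FOXO1, which drive BCL2L11, were at log2 fold changes of -0.06 and -0.08, and DDIT3 at 0.07, none past the threshold.

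Of 8 tested genes of the mitochondrial death pathway and its caspases, 5 were higher and 2 lower, with a median log2 fold change of 0.35, against 29.1% higher and 30.5% lower among all tested genes. They act downstream of the pore, except for CASP8, the gene of the caspase that cleaves BID upstream of it. HTRA2, a mitochondrial protease that antagonizes XIAP, rose from 7.71, 6.01 and 6.15 FPKM in CTR to 11.5, 10.9 and 10.8 FPKM in miR-8485, which is 0.74 as log2 fold change (SE 0.10, adjusted p = 4.5e-04 by limma). It was accompanied by ENDOG, a mitochondrial nuclease, with a log2 fold change of 0.73. CASP9, CASP8 and AIFM1 rose by less, with 0.45, 0.36 and 0.33. APAF1, the scaffold of the apoptosome, fell from 3.06 ± 0.254 to 1.88 ± 0.108 FPKM (SD, n = 3), at a log2 fold change of -0.67. XIAP, a caspase inhibitor, had -0.24 (adjusted p = 0.0070 by limma), which was lost when the trend against gene length was removed (log2 fold change -0.14, adjusted p = 0.0727, in a range of 0.0013 to 0.0727). Cytochrome c itself (CYCS) was at 62.8 ± 4.21 FPKM in CTR and 59.5 ± 1.78 FPKM in miR-8485 (SD, n = 3 each), not past the threshold. DIABLO was listed under 2 gene models, both with a mean under 0.3 FPKM. The models overlap on the minus strand of chromosome 12 (122207663 to 122226568 and 122207662 to 122227534). How reads shared by overlapping genes were counted is not given in the sources used here. The level of DIABLO is therefore not known from these values.

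**Figure D4:**
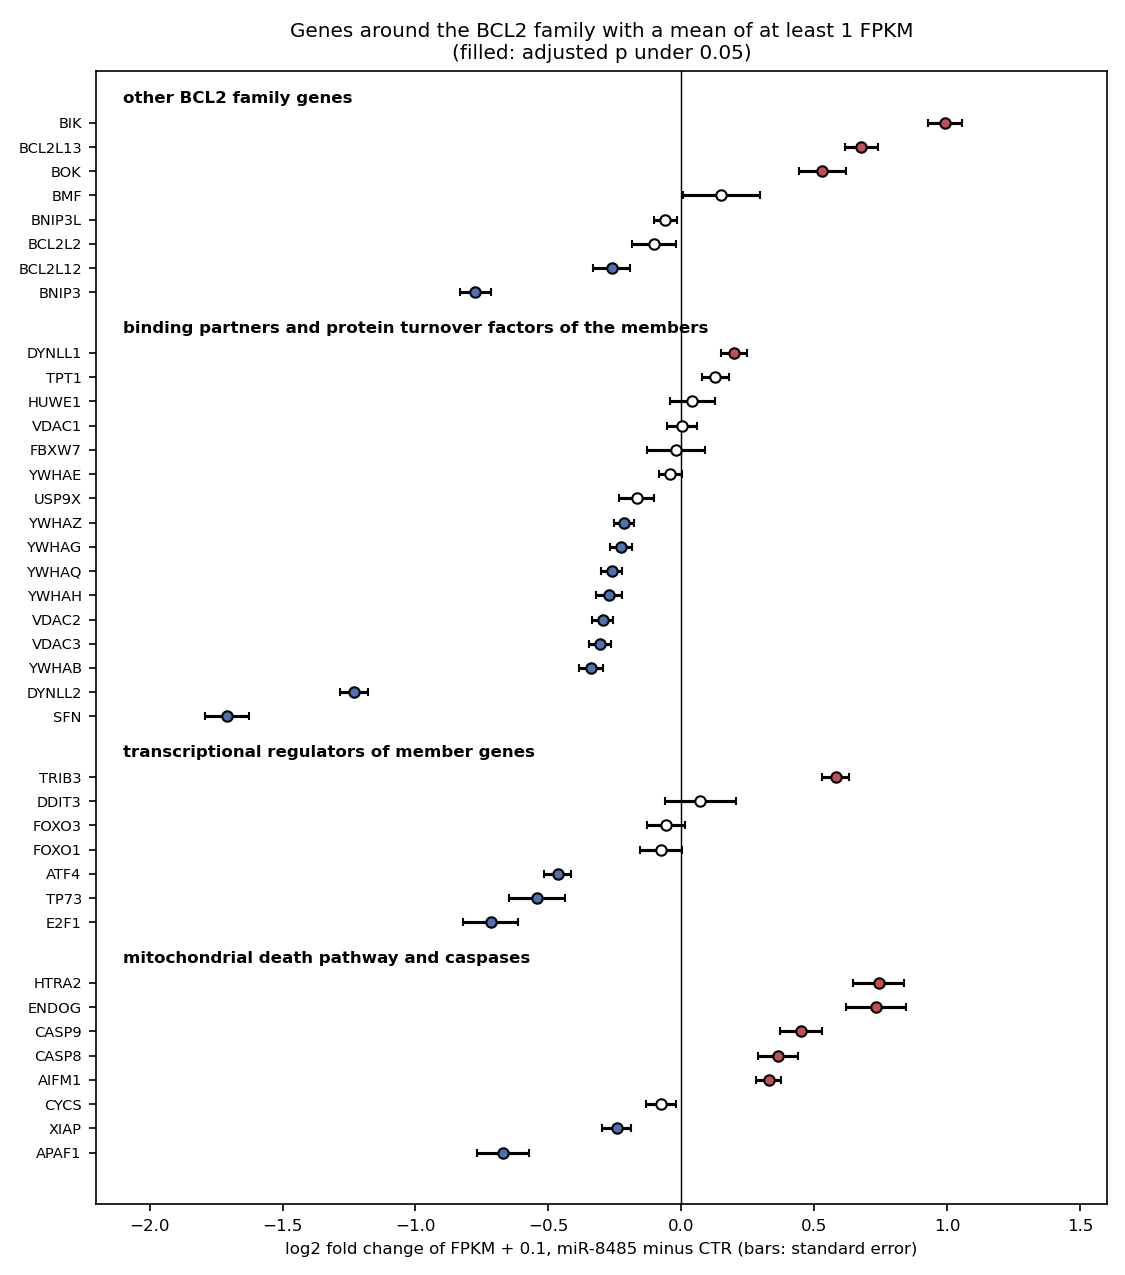
Log2 fold change of FPKM + 0.1, miR-8485 minus CTR (horizontal axis), with its standard error for the genes of the 4 related lists that had a mean of at least 1 FPKM, ordered by value within each list. Filled points are past an adjusted p of 0.05 (red higher, blue lower). BIK, HTRA2 and ENDOG lie farthest to the right of 0, and SFN and DYNLL2 farthest to the left.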

How the data were processed

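RNA-seq libraries of HCT116 cells, 3 CTR and 3 miR-8485, were grouped by the titles of the samples. Per the labels and the paper's methods, the authors cleaned reads using fastp and aligned read pairs to hg38 using HISAT2 version 2.0.5. They counted fragments per gene with featureCounts version 1.5.0-p3 and deposited FPKM values. No further scaling between libraries was applied here in the main test. The library total implied by the FPKM values, 17961005 to 19046342 fragments, was above the sum on listed genes in every library. Strand settings and the annotation release are not given in the sources used here. Above 0, 100% of the values were whole multiples of 1 fragment. The tolerance was 0.01, or wider in proportion to the count at high counts. Fragments per gene were thus recovered, and precision can be read from them.

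The log2(FPKM + 0.1) values of the 12349 genes at a mean of 1 FPKM or more were compared by the two-sided test of limma version 3.58.1 (R version 4.3.3, moderated variances with a trend on the level), and p-values were adjusted by Benjamini-Hochberg. For BCL2 and other genes under this level, the same model was fitted to all 31768 genes above 0. The members and the related gene lists were chosen with earlier results of these data known. Named beside the members were, per list, the up to 3 largest rises and falls past the threshold and every wider family gene at 1 FPKM or above. Some genes of the related lists are not reported here and were left out of the counts of their lists. Other genes named from the lists were chosen after their values were seen. Sequences came from the supplementary methods of the study (mimic) and GENCODE release 44 (3′ UTRs). Alternatives were pseudocounts of 1 and 0.01, no filter, a filter at 5 FPKM, median-of-ratios, quantile and TPM scaling, removal of the gene length trend, no variance trend, a replicate block, voom and each library left out. Python version 3.11.15 was used for the rest.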

Additional observations from a re-analysis of the deposited data

How the results depend on the processing

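The 6 called members kept their direction and their call in all 101 fits under the alternatives that could test them. The filter on a mean of at least 5 FPKM left BCL2 and BCL2L11 untested. BAK1, not called in any fit, had a log2 fold change of 0.0020 after quantile normalization and -0.064 to 0.043 with each library left out. Calls gained by BCL2, BID and BAD are given with their values. Over the 21 further named genes, 350 of 353 fits left direction and call as they were. The exceptions were DYNLL1 after rescaling to TPM, XIAP without the gene length trend, and BNIP3L, which was lower after rescaling to TPM (log2 fold change -0.18, adjusted p = 0.0312 in limma). Among the binding partners, the genes called higher numbered 2 after quantile normalization, 0 after rescaling to TPM, 3 without the gene length trend, 2 in voom, and 1 to 2 with each library left out. Of the genes of the death pathway and its caspases, the filter at 5 FPKM left 3 called higher and 1 lower, and removal of the gene length trend 1 lower. Over all tested genes, the filter at 5 FPKM gave 2303 higher and 2417 lower, against 3593 and 3769. Rescaling to TPM gave 35.6% higher among the called genes against 48.8%. Same-numbered CTR and miR-8485 libraries did not deviate together (correlations 0.067, 0.033 and -0.064), so numbers were not taken as pairs. Adding a replicate block to the model called 3634 genes higher and 3754 lower, and changed no call among the members. BCL2, with 14 to 72 fragments per library, is limited by depth, and the size of its difference depends on the pseudocount.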
